A study of Homo sapiens with 9 samples.

Results

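Expression of 10 proteoglycan genes was followed in MDA-MB231 cells, a human triple-negative breast cancer line, carrying 1 of 3 lentiviral hairpins. The genes are LUM, DCN, BGN, FMOD and OGN, which encode small leucine-rich proteoglycans, SDC1, SDC2 and SDC4, which encode syndecans, and GPC1 and GPC4, which encode glypicans. They were selected from earlier results of these same arrays, in which the intensities of several of them in the 3 lines were already known, so their values are given as a description. No p-value is printed for them. Where they are said to pass or not at an adjusted p under 0.05, that too is a description and supports nothing. Every probe set whose platform symbol is 1 of these names was taken, which gave 20 of the 22215 probe sets and 10 of the 11963 gene symbols on the array. The shco2 and shco4 lines each express a different short hairpin RNA against Coco from a pLKO vector, and the scramble line expresses a control hairpin. Coco is the secreted antagonist of BMP, Nodal and activin ligands encoded by DAND5. All 3 lines were stably transduced and grown in DMEM with 10% fetal bovine serum, and whether a line is a single clone or a pool is not stated in the labels. Each line has 3 biological replicates, hybridized to 1 Affymetrix 3′ array each, 9 in all, and 3 arrays a line limit the precision of each value. The study compares the scramble line with both Coco hairpin lines.

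Proteoglycans are proteins that carry long sulfated sugar chains. Small leucine-rich proteoglycans are secreted into the matrix, where they bind collagen fibrils and growth factors, and in most tissues they come largely from fibroblasts and related stromal cells. Syndecans span the membrane and glypicans are held on it by a lipid anchor, and the heparan sulfate chains of both bind growth factors and morphogens, BMPs among them, at the surface of epithelial and carcinoma cells.

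The 2 genes that were lower in the shco4 line at every probe set, SDC1 and SDC4, are shown here by the 250 bases before their start in RefSeq (GRCh38.p14), since they move together. Capitals mark the GC box GGGCGG or its reverse complement CCGCCC, a short motif common in promoters without a TATA box.
SDC1, chr2:20225476-20225725, minus strand: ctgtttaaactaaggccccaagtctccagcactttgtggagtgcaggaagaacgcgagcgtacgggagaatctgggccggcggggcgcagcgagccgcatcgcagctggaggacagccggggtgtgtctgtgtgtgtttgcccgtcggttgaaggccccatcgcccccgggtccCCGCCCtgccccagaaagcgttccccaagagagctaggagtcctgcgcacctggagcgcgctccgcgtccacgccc
SDC4, chr20:45348425-45348674, minus strand: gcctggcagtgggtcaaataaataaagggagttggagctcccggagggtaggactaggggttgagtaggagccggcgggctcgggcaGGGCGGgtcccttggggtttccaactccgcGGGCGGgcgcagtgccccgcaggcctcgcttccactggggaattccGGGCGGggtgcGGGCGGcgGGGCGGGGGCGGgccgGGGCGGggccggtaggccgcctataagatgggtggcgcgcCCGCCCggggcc
The SDC1 window has 1 GC box and a GC content of 66.4%, and the SDC4 window has 8 GC boxes and a GC content of 73.6%, against a median of 58.0% over 35116 RefSeq promoter windows of the same length. Both strands were searched, and a GC box was found in 42.6% of all windows. The other motifs searched were TATAAA, which neither window holds and 10.7% of all windows hold, CAGAC, which the SDC1 window holds once and 38.0% of all windows hold, and CATTCC, which neither window holds and 11.9% of all windows hold. Only exact matches were counted. The SDC4 window holds tataag, which differs from TATAAA at the last base, so the search does not show that it lacks a TATA box. Of the 10 genes, 7 matched the RefSeq promoter table, and LUM, DCN and SDC2 did not match.

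Values are the authors' scaled intensities, on which the array median lay between 122.5 and 129.6. The differences below are of log2 intensities, with any value below 16 raised to that floor, and each was repeated with a floor of 64, because the table used here holds no detection calls for dim probe sets. Of the 20 probe sets, 10 stayed over 16 on all 9 arrays and 7 stayed over 64. The 7 were the SDC1, SDC2 and SDC4 probe sets and 202756_s_at of GPC1. A further 10 probe sets, all 4 of DCN, all 3 of BGN, both of GPC4 and that of OGN, stayed at or under 64 on every array, so with the floor of 64 they can show no difference. The plot of all 20 probe sets shows that the syndecans and 1 GPC1 probe set were measured above both floors in every line, and that LUM crossed both floors in the shco4 line.

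**Figure D1:**
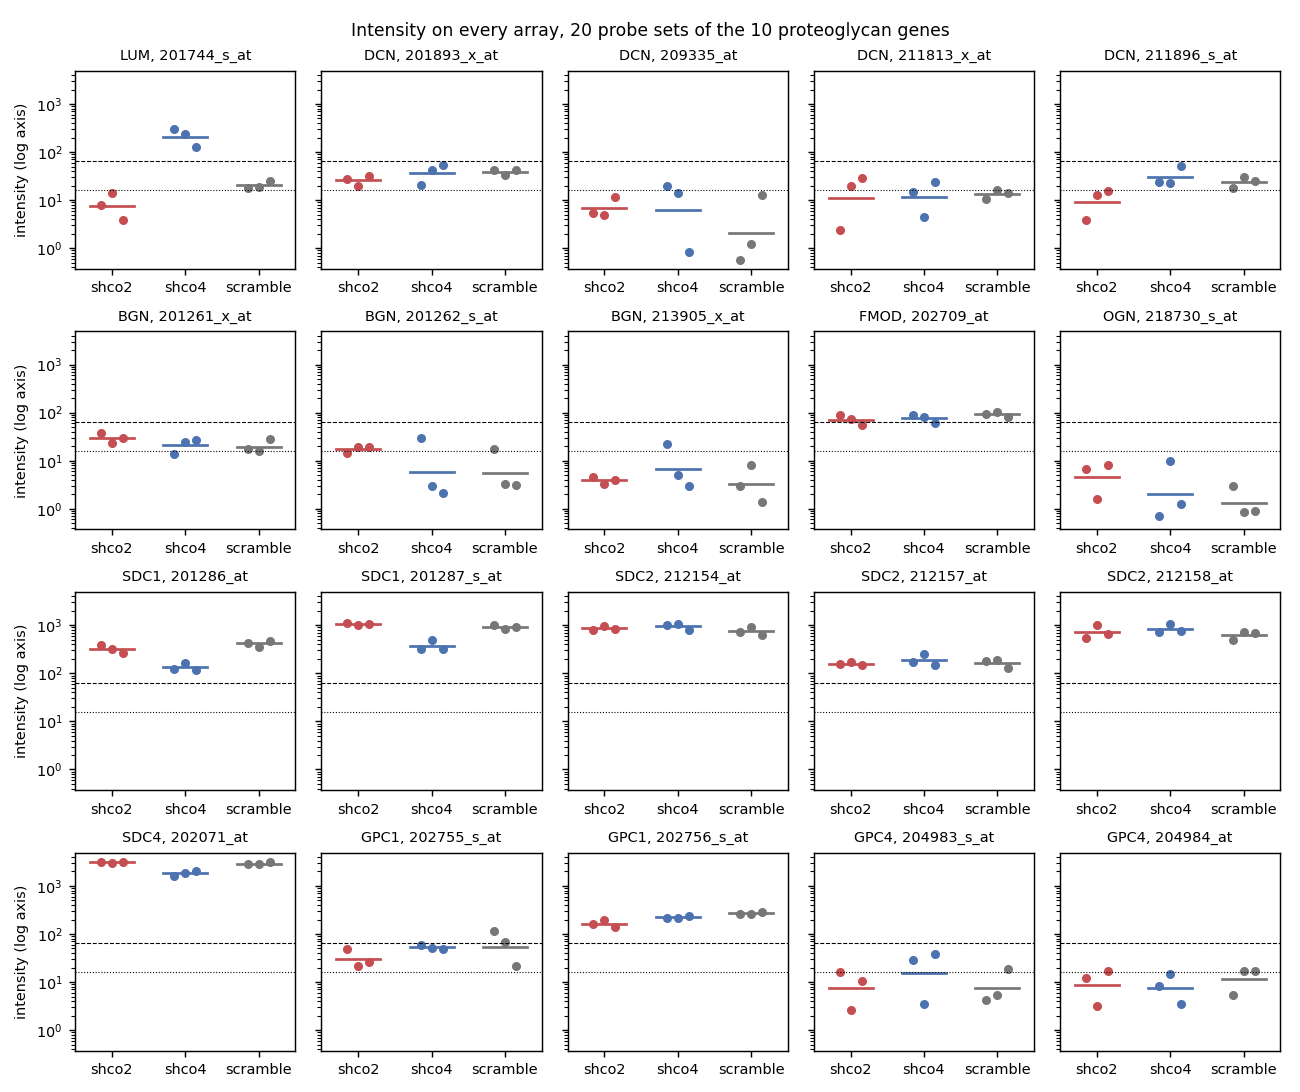
Each panel plots the intensity (log axis) of 1 probe set on the 9 arrays, with 1 point per replicate, a line at the geometric mean of each group, and dotted and dashed lines at the floors of 16 and 64. LUM lies at 128 to 296 in the shco4 line and at or under 25.0 on every shco2 and scramble array, and SDC1 and SDC4 lie lower in the shco4 line than in both other lines.

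Lumican, a small leucine-rich proteoglycan that spaces collagen fibrils in cornea and skin, had the largest differences of the 20 probe sets, those between the shco4 line and the other lines. LUM (201744_s_at) had intensities of 7.82, 13.8 and 3.86 in the shco2 line, 296, 239 and 128 in the shco4 line, and 18.2, 19.1 and 25.0 in the scramble line. The 3 shco4 arrays were thus the only ones over 64, the 3 shco2 arrays were all under 16, and no group overlapped another. On the log2 scale with the floor of 16, shco4 exceeded scramble by 3.34 ± 0.31 (SE, n = 3 each), which is 10.1-fold, with a 95% interval of 2.61 to 4.08. With the floor of 64, all scramble arrays lie at the floor, and the shco4 line was at least 3.26-fold higher. Against the shco2 line, which lay at the floor of 16 on all 3 arrays, the shco4 line was at least 13.0-fold higher with the floor of 16 and at least 3.26-fold higher with the floor of 64 (shco2 minus shco4, -3.70 ± 0.31 and -1.70 ± 0.29 on the log2 scale). Between shco2 and scramble the difference was -0.36 ± 0.31 on the log2 scale, with an interval of -1.10 to 0.37 that spans 0, although every shco2 array was dimmer than every scramble array. The order of the lines was therefore shco4, scramble and shco2, and the 95% interval of the difference between the last 2 spans 0. Within the shco4 line the brightest array was 2.32 times the dimmest, the widest spread among the 3 lines on the floored log2 scale (SD 0.63 in shco4, against 0.00 in shco2 and 0.25 in scramble). In bulk RNA, more cells that express a gene and more RNA per cell cannot be told apart.

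The genes beside LUM did not share its level in the shco4 line. In the RefSeq order LUM lies on chromosome 12 between KERA and DCN, with EPYC beyond KERA, a cluster of small leucine-rich proteoglycan genes. EPYC stayed between 1.18 and 12.6 and KERA, the corneal keratocan, between 0.595 and 11.5 over all 9 arrays, so both were under 16 in every line. DCN, a dermatan sulfate proteoglycan that binds collagen and TGF-beta, stayed between 0.572 and 52.5 over its 4 probe sets.

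Of the 4 DCN probe sets, 201893_x_at was over 16 on all 9 arrays. It had 27.2, 19.99 and 31.5 in the shco2 line, 20.2, 43.3 and 52.5 in the shco4 line, and 41.6, 33.3 and 42.0 in the scramble line. Every shco2 array was dimmer than every scramble array, while the shco4 arrays spread across both. The difference from scramble was -0.59 ± 0.37 in shco2 and -0.11 ± 0.37 in shco4 on the log2 scale with the floor of 16, and both intervals (-1.48 to 0.30 and -1.01 to 0.78) span 0. DCN 211896_s_at had 3.82, 12.6 and 15.3 in the shco2 line, 23.6, 23.0 and 50.1 in the shco4 line, and 18.0, 30.7 and 25.1 in the scramble line. The shco2 arrays again lay under all others, so the shco4 line was at least 1.88-fold higher than the shco2 line with the floor of 16 (shco2 minus shco4, -0.91 ± 0.34 on the log2 scale). That difference did not pass across all probe sets with the floor of 16, and it is 0 with the floor of 64. The other 2 DCN probe sets, 209335_at and 211813_x_at, stayed between 0.572 and 28.5, with all 3 lines overlapping.

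The remaining small leucine-rich proteoglycans were dim, and the 95% intervals of their differences between the lines span 0. BGN, whose product biglycan is a close relative of decorin with chondroitin or dermatan sulfate chains, stayed between 1.36 and 37.8 over its 3 probe sets. Its brightest, 201261_x_at, had 37.8, 23.7 and 29.7 in the shco2 line, 13.8, 24.2 and 27.4 in the shco4 line, and 17.5, 15.7 and 28.2 in the scramble line, and all 3 lines overlapped. OGN, which encodes osteoglycin, stayed between 0.703 and 9.65 and lay under 16 on all 9 arrays. Its neighbours on chromosome 9 by the RefSeq order, OMD, ASPN and ECM2, which belong to the same family, stayed at or under 27.1. FMOD, whose product fibromodulin carries keratan sulfate and binds collagen, was the one of these genes near the floor of 64 in all lines. It had 87.7, 74.9 and 56.6 in the shco2 line, 91.5, 82.4 and 61.6 in the shco4 line, and 93.8, 106 and 80.5 in the scramble line. The lines overlapped, and the differences from scramble were -0.37 ± 0.22 in shco2 and -0.26 ± 0.22 in shco4 on the log2 scale with the floor of 16 and -0.31 ± 0.18 and -0.24 ± 0.18 with the floor of 64.

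Fibroblasts are a known source of lumican and decorin, so a list of fibroblast marker genes was read beside them. Of 11 measured markers, 8 stayed at or under 64 on all 9 arrays, among them COL3A1, PDGFRA and THY1, and FAP and POSTN stayed at or under 16. Their summed intensity was 366 to 428 in the shco2 line, 400.3 to 474 in the shco4 line, and 677 to 888 in the scramble line, and their part in the LUM values was not tested. COL6A3, a collagen VI chain, was the 1 marker that passed the test. It fell by 3.12 in shco2 (limma adjusted p = 0.000212) and fell by 2.33 in shco4 (adjusted p = 0.000626) against scramble on the log2 scale. Of 10 measured markers of basal, mesenchymal-like breast lines, 9 exceeded 64 on at least 1 array and SPARC did not. Of 9 measured luminal markers, ESR1, PGR, FOXA1 and TFF1 stayed at or under 64 on all arrays and the other 5 exceeded it on at least 1.

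**Figure D2:**
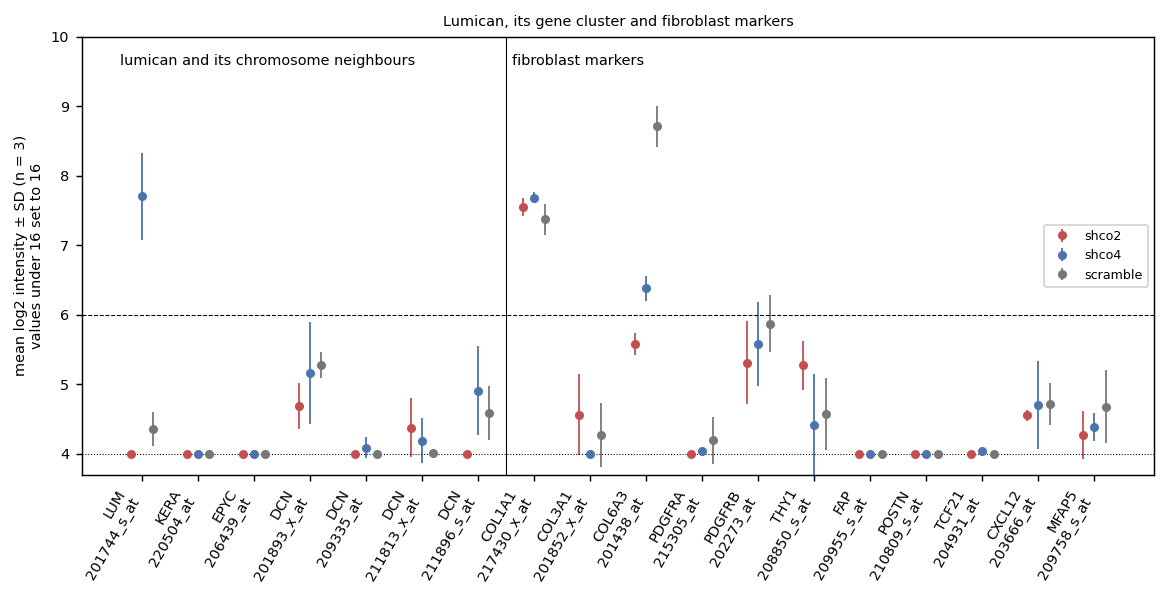
Mean log2 intensity ± SD (n = 3 arrays, values under 16 set to 16) is plotted for LUM, its neighbours on chromosome 12 and the fibroblast markers in shco2, shco4 and scramble, with lines at the floors of 16 and 64. LUM reaches 7.70 in the shco4 line while KERA and EPYC stay at the floor, and among the fibroblast markers COL6A3 is highest in the scramble line.

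Syndecan-1, the main syndecan of epithelial cells, was lower in the shco4 line at both of its probe sets. SDC1 201287_s_at had 1098, 1018 and 1088 in the shco2 line, 315, 486 and 322 in the shco4 line, and 1017, 839 and 938 in the scramble line. All shco4 arrays lay below all others, and the shco2 arrays lay just above the scramble arrays. The shco4 line differed from scramble by -1.34 ± 0.17 on the log2 scale (interval -1.76 to -0.92), a level of 0.395 times scramble. The shco2 line differed from scramble by 0.20 ± 0.17 (interval -0.21 to 0.62). SDC1 201286_at had 383, 321 and 269 in the shco2 line, 124, 163 and 116 in the shco4 line, and 438, 359 and 467 in the scramble line. Here too the shco4 arrays lay below all others, but the shco2 arrays overlapped the scramble arrays and tended to lie under them. The shco4 line differed from scramble by -1.66 ± 0.19 on the log2 scale (interval -2.11 to -1.21), a level of 0.317 times scramble, and the shco2 line by -0.38 ± 0.19 (interval -0.83 to 0.06). The sign of the difference between shco2 and scramble thus depends on the SDC1 probe set, and both 95% intervals span 0. Between the hairpins both probe sets gave the same direction, with shco2 2.91-fold above shco4 at 201287_s_at and 2.42-fold above it at 201286_at.

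Syndecan-4, a component of focal adhesions, had the smallest SE (0.09) of the 7 probe sets that stayed over both floors. SDC4 (202071_at) had 3209, 3058 and 3153 in the shco2 line, 1632, 1850 and 2075 in the shco4 line, and 2794, 2795 and 3091 in the scramble line. As at SDC1 201286_at, the shco4 arrays lay below all others and the shco2 arrays overlapped the scramble arrays. The shco4 line differed from scramble by -0.65 ± 0.09 on the log2 scale (interval -0.86 to -0.44), a level of 0.638 times scramble, which is a smaller step than at either SDC1 probe set. The shco2 line differed from scramble by 0.12 ± 0.09 (interval -0.09 to 0.33) and lay 1.70-fold above the shco4 line.

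Syndecan-2, the syndecan typical of mesenchymal cells, did not share this pattern. SDC2 212154_at had 802, 988 and 831 in the shco2 line, 1001, 1048 and 802 in the shco4 line, and 740, 902 and 632 in the scramble line. SDC2 212158_at had 533, 999.5 and 674 in the shco2 line, 739, 1064 and 748 in the shco4 line, and 500.2, 728 and 679 in the scramble line. At 212158_at every shco4 array was above every scramble array, and at the other 2 probe sets the lines overlapped. SDC2 212157_at stayed between 130 and 248 on all arrays. The differences between shco4 and scramble were 0.33 ± 0.17, 0.42 ± 0.28 and 0.18 ± 0.22 on the log2 scale at 212154_at, 212158_at and 212157_at, and those between shco2 and scramble were 0.21 ± 0.17, 0.18 ± 0.28 and -0.06 ± 0.22. All 6 intervals span 0, and for shco4 minus scramble at 212154_at the interval ran from -0.07 to 0.73, which holds no decrease of the size seen for SDC4. All syndecan differences were the same with the floor of 64 to 2 decimals, since every syndecan array was above it.

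**Figure D3:**
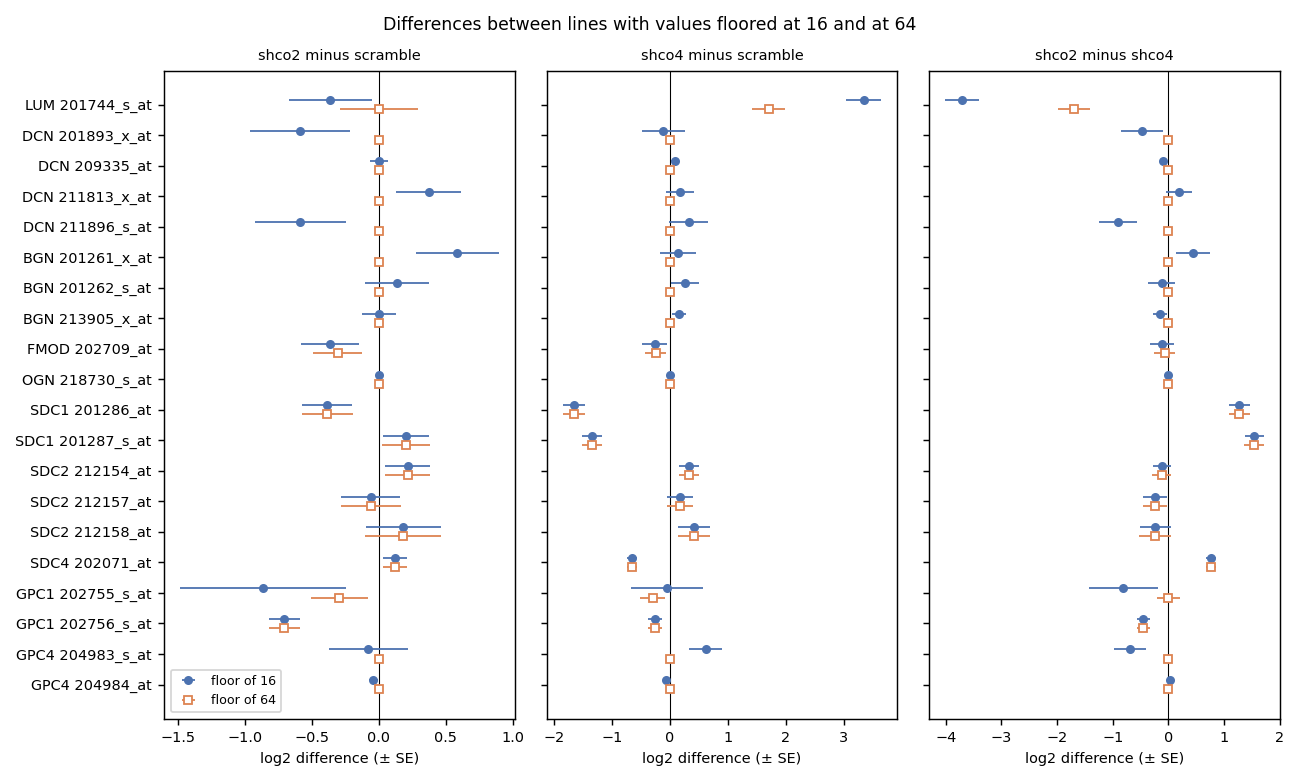
The log2 differences between lines (± SE) are plotted for the 20 probe sets, with filled circles for values floored at 16 and open squares for values floored at 64, in panels for shco2 minus scramble, shco4 minus scramble and shco2 minus shco4. The LUM point in shco4 minus scramble lies at 3.34 with the floor of 16 and at 1.70 with the floor of 64, while SDC1, SDC2, SDC4 and GPC1 202756_s_at have the same values with both.

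Glypican-1, a lipid-anchored heparan sulfate proteoglycan that acts as a coreceptor for growth factors, was lowest in the shco2 line. GPC1 202756_s_at had 161, 197 and 143 in the shco2 line, 220.2, 219.5 and 239 in the shco4 line, and 264, 261 and 284 in the scramble line. The 3 lines did not overlap, with scramble highest and shco4 between. The shco2 line differed from scramble by -0.71 ± 0.12 on the log2 scale (interval -0.98 to -0.43), a level of 0.613 times scramble. The shco4 line differed from scramble by -0.25 ± 0.12, with an interval of -0.53 to 0.02 that reaches 0. The shco2 line differed from the shco4 line by -0.45 ± 0.12 (interval -0.73 to -0.18). This last difference lay between -0.35 and -0.47 when any 1 of shco2 replicate 1, shco2 replicate 3 or the 3 shco4 replicates was left out, and in those 5 fits it no longer passed across all probe sets. The summed intensity of the 10 basal breast line markers was also lowest in the shco2 line, at 36170 to 36730, against 52750 to 54730 in the shco4 line and 58280 to 61210 in the scramble line. That of the 9 luminal markers was lowest there too, at 2846 to 3051, against 5601 to 6058 in the shco4 line and 5456 to 6929 in the scramble line, and the part of either in the GPC1 values was not tested. The second GPC1 probe set, 202755_s_at, was dimmer and scattered, with 47.9, 21.4 and 26.7 in the shco2 line, 60.4, 51.2 and 48.1 in the shco4 line, and 114, 66.5 and 21.7 in the scramble line. The scramble arrays alone spanned nearly the whole range of both other lines. The difference between shco2 and scramble was -0.86 ± 0.62 on the log2 scale with the floor of 16 and -0.30 ± 0.21 with the floor of 64.

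Glypican-4 was near the floor. GPC4 204983_s_at had 15.9, 2.56 and 10.3 in the shco2 line, 28.7, 3.53 and 37.8 in the shco4 line, and 4.21, 5.46 and 18.9 in the scramble line, and GPC4 204984_at stayed between 3.23 and 17.2. At 204983_s_at 2 of the 3 shco4 arrays lay above all other arrays and the third lay among the lowest. The difference between shco4 and scramble was 0.61 ± 0.29 on the log2 scale with the floor of 16 and 0 with the floor of 64. Without shco4 replicate 2, the low one, the value with the floor of 16 was 0.96, so it rests on how that 1 array is treated. GPC3, the glypican gene beside GPC4 on chromosome X, stayed between 14.2 and 29.0.

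Across all 22215 probe sets, limma at an adjusted p under 0.05 called 10.7% higher and 9.95% lower in shco2 than in scramble, and of the 20 proteoglycan probe sets 1 was lower, GPC1 202756_s_at. In shco4 against scramble it called 9.05% of all probe sets higher and 9.75% lower, and of the 20 it called 1 higher (LUM) and 3 lower (both SDC1 probe sets and SDC4). In shco2 against shco4 it called 16.1% higher and 14.9% lower, and of the 20 it called 3 higher (both SDC1 probe sets and SDC4) and 2 lower (LUM and GPC1 202756_s_at). Since the genes were chosen on these arrays, nothing is read from these counts. Both hairpins were compared with the same 3 scramble arrays.

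Probe sets with 1 symbol that exceeded 16 on at least 3 arrays were ranked by how closely their log2 values followed LUM. The closest over the 9 arrays belonged to CASP1 (Pearson r 0.993), ITM2B (0.991), COL21A1 (0.991), ETFB (0.990) and CFDP1 (0.986). They were picked for a high r, so the r values are a description only. The 9 points are 3 arrays in each of 3 lines, so the step between the shco4 arrays and the others enters every r. With the line means taken out, r with LUM was 0.904 for CASP1, 0.904 for ITM2B and 0.987 for COL21A1. It was 0.752 for ETFB and 0.815 for CFDP1. LUM lay at the floor of 16 on all shco2 arrays, so it has no spread there in these values. ETFB, a subunit of the mitochondrial electron transfer flavoprotein, had 262, 318 and 262 in the shco2 line, 1287, 985 and 815 in the shco4 line, and 336, 303 and 318 in the scramble line. The shco4 arrays of ETFB lay above all others, as those of LUM did. ITM2B, a membrane protein, had 4181, 4353 and 4140 in the shco2 line, 7456, 6950 and 5919 in the shco4 line, and 4370, 4167 and 4333 in the scramble line. CASP1, the inflammatory caspase, and COL21A1, a fibril-associated collagen, stayed at or under 30.0, so their likeness to LUM lies close to the floor. CASP1 exceeded 16 on the 3 shco4 arrays only, and COL21A1 on those and 1 scramble array. They thus entered the ranking through the line in which LUM is high, and nothing is read from their r.

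Beyond the 10 genes, 97 genes in 8 lists that make, carry, cut or bind proteoglycan chains were tested by limma across all probe sets, with 77 of them measured and the brightest probe set used for each gene. In shco2 7 rose and 18 fell against scramble, with a median log2 difference of -0.04, and in shco4 7 rose and 17 fell, with a median of 0.00, as over all probe sets. Because the brightest probe sets were used, the shares are better set beside those of bright probe sets: in a fit of probe sets with a mean of at least 64 only, 48 of these genes were measured, and 14.6% rose and 41.7% fell in shco2, against 20.7% and 18.9% of all bright probe sets. In the same fit 16.7% rose and 35.4% fell in shco4, against 17.1% and 19.3% of all bright probe sets, and 31.2% were higher and 31.2% lower in shco2 than in shco4, against 28.7% and 25.4%. No test of these lists as groups was made.

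Several of these genes work directly on the syndecans. PRKCA, the kinase bound and activated by the syndecan-4 tail, fell by 1.21 ± 0.11 in shco2 (limma adjusted p = 0.000961) and fell by 1.05 ± 0.11 in shco4 (adjusted p = 0.0018) on the log2 scale at its brightest probe set. The 3 other PRKCA probe sets did not pass in shco2 (-0.14, -0.09 and -0.40). CASK, which binds syndecan tails, fell by 0.85 ± 0.12 in shco4 (limma adjusted p = 0.00455), where its second probe set did not pass (-0.64, adjusted p = 0.105). CASK also fell in shco2 (-0.45 ± 0.12, limma adjusted p = 0.0379), and that call ended without any 1 of 7 arrays. Its second probe set did not pass in shco2 either (-0.33). TIAM1, a Rac activator reported to bind syndecan tails, fell by 1.25 ± 0.19 in shco4 (limma adjusted p = 0.00585). SDCBP, listed as a syndecan tail partner, fell by 0.84 ± 0.17 in shco2 (limma adjusted p = 0.015). The SDCBP call ended without scramble replicate 2 or 3 (adjusted p up to 0.0536). Of the enzymes that cut heparan sulfate or shed syndecans, HPSE, the heparanase, rose by 1.06 ± 0.15 in shco2 (limma adjusted p = 0.00466) and fell by 0.93 ± 0.15 in shco4 (adjusted p = 0.00872). Its intensities were 678, 679 and 662 in the shco2 line, 185, 187 and 141 in the shco4 line, and 356, 354 and 264 in the scramble line, so SDC1 and HPSE were both lowest in the shco4 line. Of the sheddases, ADAM10 fell by 1.07 ± 0.10 (limma adjusted p = 0.000999) and ADAM17 rose by 0.60 ± 0.10 (adjusted p = 0.00778) in shco2, each with both of its other probe sets called in its direction.

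Among the chain-building enzymes, UGDH makes the UDP-glucuronate used for heparan, chondroitin and dermatan sulfate chains. It fell by 2.07 ± 0.10 in shco4 on the log2 scale (limma adjusted p = 0.000248), with 128, 125 and 134 in the shco4 line and 510, 513 and 611 in the scramble line. PAPSS2, which makes the sulfate donor of the sulfotransferases, fell by 1.34 ± 0.10 in shco2 (limma adjusted p = 0.000464) and fell by 0.55 ± 0.10 in shco4 (adjusted p = 0.0104), where its other 2 probe sets did not pass. B4GALT7, which adds the first galactose of the linker to the core protein, fell by 1.62 ± 0.15 in shco2 (limma adjusted p = 0.00096). Its second probe set did not pass there (-1.11, limma adjusted p = 0.0749). B4GALT7 also fell in shco4 (-0.75 ± 0.15, limma adjusted p = 0.0154). In the same list SLC35D1, a nucleotide sugar transporter, rose by 0.97 ± 0.10 in shco2 (limma adjusted p = 0.00134). It also rose in shco4 (0.40 ± 0.10, limma adjusted p = 0.0323). That shco4 call ended without any 1 of 7 arrays and in the replicate block fit (adjusted p = 0.0574). UXS1, which makes UDP-xylose, rose by 0.61 ± 0.08 in shco4 (limma adjusted p = 0.00421). In shco2 UXS1 fell (-0.41 ± 0.08, limma adjusted p = 0.0148), a call that ended without shco2 replicate 3 (adjusted p = 0.0529). Of 12 chondroitin and dermatan sulfate enzymes, 3 rose and 2 fell in shco2, and 1 rose and 5 fell in shco4. In shco2 10.7% of all probe sets were higher and 9.95% lower, and of bright ones 20.7% and 18.9%. In shco4 9.05% of all probe sets were higher and 9.75% lower, and of bright ones 17.1% and 19.3%. CHST12, a chondroitin 4-sulfotransferase, rose by 0.58 ± 0.07 in shco2 (limma adjusted p = 0.00287) and fell by 0.9995 ± 0.07 in shco4 (adjusted p = 0.00063). CHST15, which adds a further sulfate, fell by 1.48 ± 0.08 in shco2 (limma adjusted p = 0.000212). CHST7 rose by 0.48 ± 0.09 in shco2 (limma adjusted p = 0.0108) and lay at -0.58 in shco4. In shco4 CHST11 (-0.80 ± 0.09, limma adjusted p = 0.00274) and CHSY1 (-0.83 ± 0.12, adjusted p = 0.00491) fell. Of 15 heparan sulfate enzymes, 3 fell in shco2 and 2 rose and 2 fell in shco4, beside the same shares of all and of bright probe sets. EXTL2 lay in shco2 at -0.53 ± 0.10 (limma adjusted p = 0.0121) and in shco4 at 0.77 ± 0.10 (adjusted p = 0.00378). In shco2 NDST1 (-0.65 ± 0.13, limma adjusted p = 0.0169) and GLCE (-0.73 ± 0.18, adjusted p = 0.0343) fell. Those calls ended without any 1 of 4 and of 7 arrays. In shco4 HS3ST3B1 rose (0.79 ± 0.11, limma adjusted p = 0.00512, and 0.36 with the floor of 64). EXT2 fell there (-0.39 ± 0.10, limma adjusted p = 0.0331), a call that ended without any 1 of 6 arrays. Its second probe set also passed as lower in shco4 (-0.54, limma adjusted p = 0.0038).

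Among other proteoglycan core proteins, 3 of the 12 secreted or pericellular ones fell in shco2, where 9.95% of all probe sets and 18.9% of bright ones were lower. They were AGRN (-1.18 ± 0.09, limma adjusted p = 0.000566), COL18A1 (-1.23 ± 0.21, adjusted p = 0.00896) and HSPG2 (-0.89 ± 0.20, adjusted p = 0.0252, with a second probe set that did not pass), which encode agrin, collagen XVIII and perlecan, and HSPG2 did not pass when any 1 of 4 arrays was left out (adjusted p up to 0.0806, without scramble replicate 1). AGRN rose by 0.67 ± 0.09 in shco4 (limma adjusted p = 0.00414), and all 3 were lower in shco2 than in shco4, by at least 1.46 on the log2 scale. PRELP, the small leucine-rich proteoglycan gene beside FMOD, was like LUM highest in the shco4 line, with 5.77, 35.7 and 35.0 in the shco2 line, 137, 125 and 108 in the shco4 line, and 84.0, 53.3 and 98.4 in the scramble line. It was lower in shco2 than in shco4 by -2.18 ± 0.37 on the log2 scale with the floor of 16 (limma adjusted p = 0.00522) and by -0.94 with the floor of 64. PRELP also differed between shco2 and scramble (-1.49 ± 0.37, limma adjusted p = 0.0341), a call that ended without any 1 of 7 of the 9 arrays (adjusted p up to 0.104, without scramble replicate 3) and with the floor of 64 (adjusted p = 0.262). CD44, whose longer forms carry chains, has 8 probe sets, and at the brightest it fell by 0.52 ± 0.06 in shco2 (limma adjusted p = 0.00273) and rose by 0.36 ± 0.06 in shco4 (adjusted p = 0.011). Of the 7 other CD44 probe sets, 2 rose in shco4 and 5 did not pass, among them 1 at -0.13, while 5 fell in shco2. Of the cell-surface proteoglycans TGFBR3 (betaglycan) and CSPG4, both passed as lower in shco4 (limma adjusted p = 0.0431 and 0.0305), and neither did in the replicate block fit (adjusted p = 0.0614 and 0.0566). TGFBR3 also failed without any 1 of 7 arrays (adjusted p up to 0.114, without shco4 replicate 1) and CSPG4 without any 1 of 5 (up to 0.0854, without scramble replicate 1) or with the floor of 64 (0.391). The second CSPG4 probe set, with a mean intensity of 35.2, also passed as lower in shco4 with the floor of 16 (-1.41, limma adjusted p = 0.00769). SDC3, the remaining syndecan, had 59.4, 63.4 and 17.3 in the shco2 line, 20.6, 183 and 86.9 in the shco4 line, and 248, 181 and 144 in the scramble line. With the floor of 16 neither difference from scramble passed (-2.21 and -1.44, limma adjusted p = 0.143 and 0.353). With the floor of 64 all shco2 arrays lay at the floor, and scramble was at least 2.91-fold higher. That difference passed (-1.54 ± 0.40, limma adjusted p = 0.0429), and the one in shco4 did not (-0.89, adjusted p = 0.22).

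**Figure D4:**
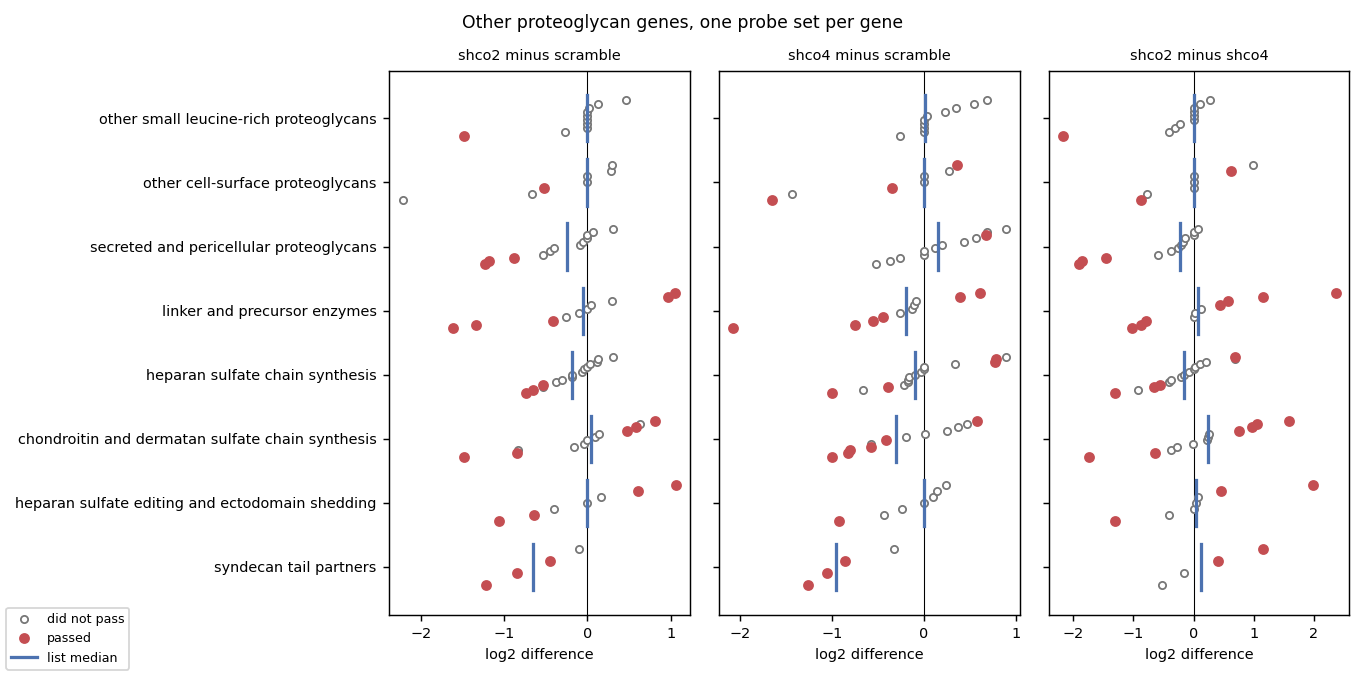
Log2 differences are plotted for the 77 other proteoglycan genes, with 1 point per gene in 8 rows by function, filled where limma called the gene at an adjusted p under 0.05, and a bar at the median of each row, in panels for shco2 minus scramble, shco4 minus scramble and shco2 minus shco4. The median of the syndecan tail partners lies below 0 in both comparisons with scramble (-0.65 and -0.95). That row holds only 4 measured genes of 7 listed, of which 3 passed in each of these comparisons. The medians of the other 7 rows lie between -0.30 and 0.16 there.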

How the data were processed

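Per the labels, 200 ng of total RNA per sample was converted to biotin-labelled cRNA for 9 arrays. The authors deposited 1 linear intensity per probe set and array, which they had scaled: computed from the values, the mean after trimming 2% at each end was close to 500.1 on all arrays. Neither the software nor the summary method is given in the sources used here. The labels gave each array's group and replicate number.

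Intensities were floored at 16 and put on the log2 scale, and limma (3.58.1, in R 4.3.3) was run with lmFit and eBayes on a model of 1 mean per line over 9 arrays, without the 62 control probe sets among 22277. Tests are two-sided, with Benjamini-Hochberg adjustment over 22215 probe sets. Of these, 2611 never exceeded the floor. Symbols came from the platform annotation, with 19064 probe sets carrying 1 symbol. Since 0 probe sets are named DAND5, the knockdown of Coco was not analysed here. A difference from a line at the floor on all arrays is given as "at least".

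The 10 genes and all lists were chosen with earlier results of these data known. The lists are other small leucine-rich, other cell-surface, and secreted or pericellular proteoglycans, linker and precursor enzymes, heparan sulfate synthesis, chondroitin and dermatan sulfate synthesis, heparan sulfate editing and shedding, and syndecan tail partners, besides fibroblast, basal and luminal breast line markers. The naming rule took every probe set of the 10 genes, up to 3 called genes with the smallest adjusted p per list and comparison, and the 5 genes most like LUM. SDC3, COL6A3 and other markers and neighbours were named outside it, after their values were seen.

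Deviations of same-numbered arrays from their line means correlated at 0.133 to 0.235 between shco4 and scramble, over 0.1 in every pair, so that comparison was also read with the replicate number as a block. They correlated at 0.0571 to 0.29 between shco2 and scramble and at 0.0576 to 0.213 between the hairpins. The labels call replicates biological without naming separate cultures, so p-values may measure technical spread only. The fit was tested on simulated data. Alternatives were a floor of 64, log2 of the value plus 16, quantile normalization, median centring, filters on dim probe sets, a trended and robust variance, only the lines compared, the replicate block, another probe set per gene, and leaving out each array.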

Additional observations from a re-analysis of the deposited data

Results flagged for a closer look

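For 2 of the 10 genes and 14 genes of the lists, all arrays of one hairpin line lay above every scramble array and all arrays of the other below every scramble array. That pattern itself keeps the hairpin lines apart, so the differences between them (shco2 minus shco4, log2 scale) are given here as values and support nothing further. The share of all probe sets with the pattern was not counted, so it is not read as a trait of these genes. Against scramble, limma called 7 list genes with both hairpins in opposite directions, all among the 14. It called 6 list genes with both hairpins in the same direction. The share of all probe sets called with both hairpins was not counted either, so nothing is read from these 2 counts.

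For the 2, LUM was at -3.70 and SDC1 at 201287_s_at was at 1.54. For LUM the shco2 side rests on values under 16 against 18.2 to 25.0 in scramble. For SDC1 at 201287_s_at the lowest shco2 array was 1018 and the highest scramble array 1017. The second SDC1 probe set does not share the pattern, because shco2 overlaps scramble there.

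Of the list genes, those lower in shco2 than in shco4 were PRELP (-2.18), COL18A1 (-1.91), AGRN (-1.85), CHST15 (-1.73), HSPG2 (-1.46), ADAM10 (-1.31), EXTL2 (-1.30), UXS1 (-1.02) and CD44 (-0.88). Those higher in shco2 than in shco4 were HPSE (1.99), CHST12 (1.58), CHST7 (1.06), EXT2 (0.70) and TGFBR3 (0.63). The second EXT2 probe set was at 0.08. CD44 does not hold the pattern at 1 of its other probe sets, where the shco4 line was at -0.13 against scramble.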

How the results depend on the processing

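Over the alternatives for the 20 proteoglycan probe sets, 1 was called in shco2 against scramble in every setting, 4 or 5 in shco4 against scramble and 4 to 6 between the hairpins. Of the 77 list genes, 18 to 27, 17 to 27 and 24 to 30 were called in the same order of comparisons, against 25, 24 and 28 as reported. With the replicate block, 1, 4 and 4 of the 20 probe sets and 26, 25 and 30 of the list genes were called. The one call among the 20 that the block ended was GPC1 202756_s_at between the hairpins, which also ended with only the compared lines in the fit. DCN 211896_s_at passed between the hairpins with log2 of the value plus 16 (-0.84 on the log2 scale), and DCN 201893_x_at without shco4 replicate 1 (-0.89). GPC1 202756_s_at passed in shco4 against scramble with only those lines in the fit (-0.25). In no setting did a called value of these genes change sign. No detection calls were at hand, so changes of DCN, BGN, OGN and GPC4, at or under 64 throughout, cannot be told from background.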
